A study of Saccharomyces cerevisiae with 4 samples.

Results

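Described here are 788 array probes of the budding yeast genome at which ChIP-chip gave a high ratio of precipitated over input DNA with both of the nuclear pore proteins Nup157p and Nup170p. ChIP-chip measures, for each short probe on a microarray, the DNA that is pulled down with a protein (ChIP, labelled with Cy5) relative to the whole cell extract it came from (labelled with Cy3). A probe was taken when log2(ChIP / whole cell extract), centred on the median of the nuclear probes, was 0.4 or more (a ratio of 1.32) in both hybridisations of the Nup157 library and in both of the Nup170 wild type library. It also had to lie at least 5 kb from the first and last probe of its chromosome. Of 41480 nuclear probes, 41041 were eligible by position and quality marks, and the 788 members made up 1.92% of these. The members were thus chosen by the values of both wild type libraries, which are given below as a description. The remaining 2 libraries played no part in the choice.

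There were 4 libraries, each from its own strain and with no replicate culture, measured in 2 hybridisations. The first carried NUP157-9xMYC::hphR and the second NUP170-9xMYC::hphR, both labelled wild type. The third carried NUP170-9xMYC::hphR with sir4∆::natR, and the fourth NUP170-9xMYC::hphR with yku70∆::natR. All 4 strains are labelled MATa with his3∆1, leu2∆0, ura3∆0 and lys2∆0, so the strains called wild type are labelled with these deletions too. Cells grew in YPD at 30 °C to an OD600 of 1, were cross-linked in 1% formaldehyde for 1 h and had their DNA sheared to about 400 bp, and the Myc tag was precipitated with a monoclonal anti-Myc antibody. The labels do not say whether the 2 hybridisations of a library came from separate cultures, so they are treated as repeat measurements, and no p-value is given. No untagged strain was analysed here, so binding of either protein and signal that any anti-Myc precipitation would give at a probe cannot be told apart.

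Nup157p and Nup170p are paralogs that help build the inner ring of the nuclear pore complex, the channel through which RNA and protein cross the nuclear envelope. In yeast, pore proteins have been found in contact with actively transcribed genes and with subtelomeric chromatin. The SIR4 product silences genes near telomeres and at the mating loci, and that of YKU70 is part of Ku, which binds DNA ends.

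Whole cell extract shows the strain's own DNA, and it did not match every label. In the sir4∆-labelled library the 15 probes inside SIR4 stood 0.50 log2 units below the mean of the other libraries (-0.50), yet all 30 readings were above blank spots. In the yku70∆-labelled library the 7 probes inside YKU70 stood at -0.05 and all 14 readings were above blank. Inside LYS2, none of 32 readings was above blank in the Nup157 library and all 32 were in each Nup170 library, and at HMRA1, a gene of a silent mating locus, the Nup157 library stood at -0.86 in the extract. These libraries are therefore named by their labels, and no value below is ascribed to the absence of either gene. The Nup157 ratios were wider, with a lower-side SD of 0.50 against 0.22, 0.19 and 0.18 for Nup170 in wild type, the sir4∆-labelled and the yku70∆-labelled library. Of the eligible probes, 13.6% passed 0.4 in both hybridisations with Nup157 and 3.83% with Nup170 in wild type, so the members were 14.1% of the 5600 probes that passed with Nup157 and 50.1% of the 1572 that passed with Nup170.

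Members had median log2 ratios of 0.90 and 1.04 in the first and second hybridisation with Nup157, and of 1.01 and 0.65 with Nup170 in wild type. In the libraries the rule did not use, the medians were 0.57 and 0.65 in the sir4∆-labelled library and 0.76 and 0.73 in the yku70∆-labelled library. Over all eligible probes the median was 0 by construction, to within rounding. Just inside the threshold, the lowest of the 4 wild type readings was 0.40 at probes annotated to CBP4, an assembly factor of the mitochondrial bc1 complex, RPS8A, for a small subunit ribosomal protein, and PGI1, for glucose-6-phosphate isomerase. Just outside, it was also 0.40 to 2 decimals at probes of RPL16B, NNR2 and SKI6, which had 0.69, 0.43 and 0.68 in the sir4∆-labelled library and 0.78, 0.63 and 0.56 in the yku70∆-labelled library. The threshold therefore parts probes that differ little.

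**Figure D1:**
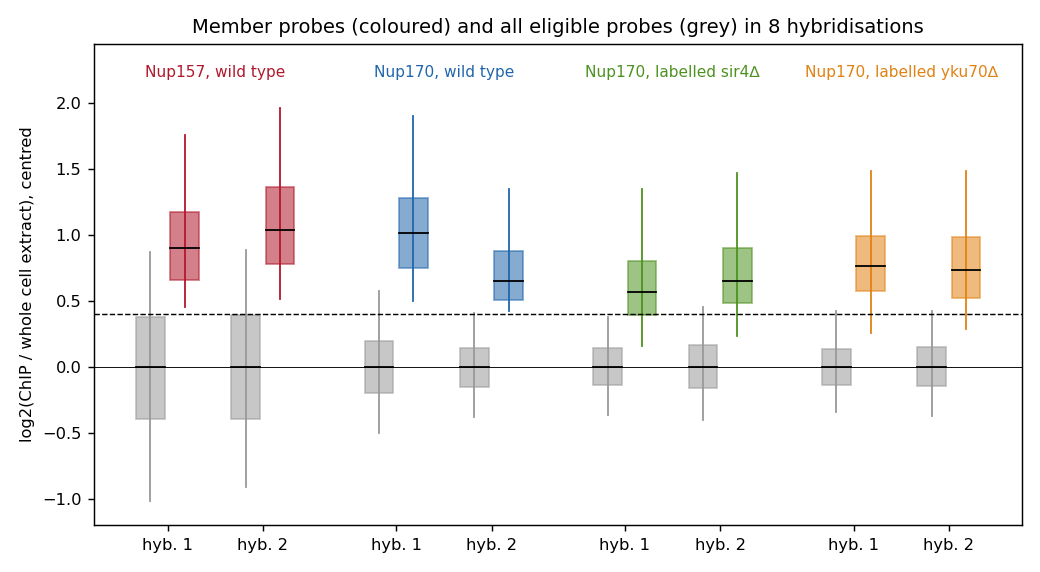
Centred log2(ChIP / whole cell extract) in the 8 hybridisations, as box plots with the median (black line), the quartiles (box) and the 5th to 95th percentiles (line), for members (coloured) and all eligible probes (grey); the dashed line marks the threshold of 0.4. The median of the members lies between 0.57 and 1.04 in every hybridisation, while the median of all eligible probes lies at 0.

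Neighbouring members were joined into runs where gaps were at most 1000 bp, with a median probe spacing of 257 bp. There were 500 runs, of which 355 held a single member and 145 held 2 or more, with 433 members in all. Probes in a run share fragments of sheared DNA, so they are not independent measurements. The 10 longest runs, with ties taken in order of chromosome and position, held between 5 and 10 members each and lay mostly along ORFs. There were 10 runs of 5 members, so some runs as long as the last ones named are left out.

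PMA1 (YGL008C), the plasma membrane proton pump, had all 10 of its probes among the members (chromosome 7, 480024 to 482570 in the coordinates of the files, for which the genome build was not given in the sources used here). Its mean over members was 1.10 and 1.60 in the hybridisations of Nup157, 1.82 and 1.18 with Nup170 in wild type, 1.11 and 1.21 in the sir4∆-labelled library and 1.39 and 1.32 in the yku70∆-labelled library. In the unused libraries single probes of PMA1 ran from 0.94 to 1.36 and from 1.18 to 1.50, so each stood above the threshold there too. YEF3 (YLR249W), for translation elongation factor 3, also held 10 members, of 11 probes inside its ORF (chromosome 12, 637083 to 639936). It had means of 1.10 and 1.33 with Nup157, 1.50 and 0.97 with Nup170 in wild type, 0.84 and 0.97 in the sir4∆-labelled library and 1.11 and 1.04 in the yku70∆-labelled library. The odd probe out in YEF3 was low only with Nup157, at 0.20.

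PDC1 (YLR044C), for pyruvate decarboxylase, had all 7 of its ORF probes as members (chromosome 12, 232462 to 234003), in a run that also took in a probe upstream of TRX1, for thioredoxin. Its means were 1.37 and 1.85 with Nup157, 1.87 and 1.20 with Nup170 in wild type, 1.02 and 1.32 in the sir4∆-labelled library and 1.40 and 1.34 in the yku70∆-labelled library. HPF1 (YOL155C), a mannoprotein of the cell wall, held 8 members (chromosome 15, 29337 to 31690), with means of 1.19 and 1.28 for Nup157, 1.03 and 0.69 for Nup170 in wild type, 0.50 and 0.59 in the sir4∆-labelled library and 0.75 and 0.83 in the yku70∆-labelled library. It is the run where the sir4∆-labelled values lay lowest among these 4, with single probes down to 0.20. CDC19, for pyruvate kinase, had 6 members and PGK1, for phosphoglycerate kinase, had 6. Their means over both hybridisations were 1.00 and 0.89 in the sir4∆-labelled library and 1.23 and 1.04 in the yku70∆-labelled library. The run at PHO84, a phosphate transporter gene, with its neighbour TUB3, for alpha-tubulin, had 6 members, and the run of RPL3, for a large subunit ribosomal protein, and YNG1, for a histone acetyltransferase subunit, also had 6. The run at OM14, for a mitochondrial outer membrane protein, held 5 members that all lay upstream of the ORF, at positions from -1652 to -323 bp relative to its start, with means of 1.11 in both unused libraries. FRD1 and GLY1, for fumarate reductase and threonine aldolase, shared a run of 5.

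**Figure D2:**
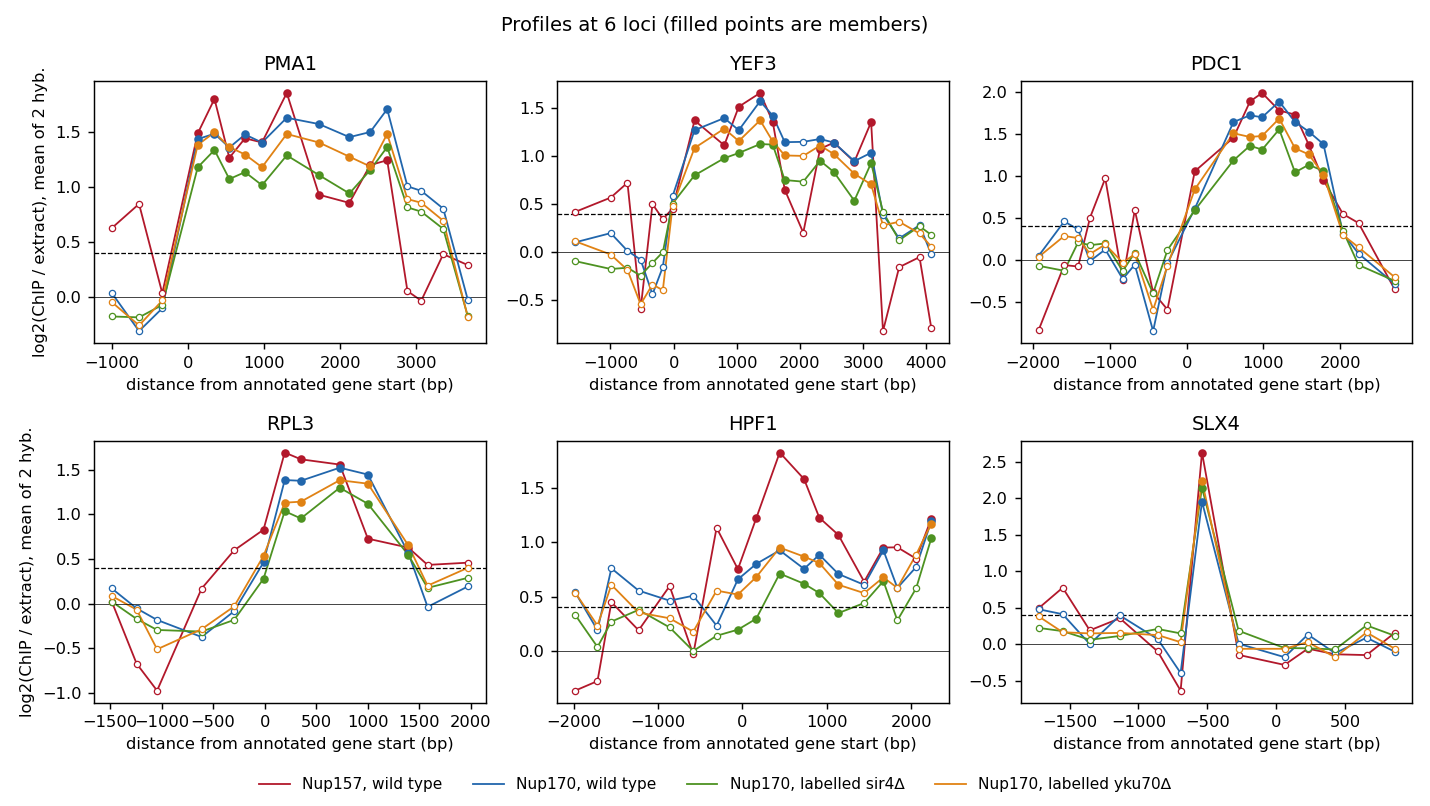
Mean log2(ChIP / whole cell extract) of the 2 hybridisations against the distance from the annotated gene start in bp, along PMA1, YEF3, PDC1, RPL3, HPF1 and an isolated probe upstream of SLX4, for the 4 libraries (colours); filled points are members and the dashed line is the threshold of 0.4. Along the first 5 genes many neighbouring probes are high together, whereas upstream of SLX4 a single member at about 2 stands between neighbours near 0.

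All probes inside the ORF were members at 16 genes. Besides PMA1, PDC1, PGK1 and RPL3 these were ASC1, ADH1, ILV5, GLY1 and GCN4 with 4 probes each, and ENO2, RPP0, RPL5, SSB1, SSA2, RPS9A and RPS2 with 3 each. ASC1 encodes a small subunit ribosomal protein, ADH1 alcohol dehydrogenase, ILV5 an enzyme of branched-chain amino acid synthesis, ENO2 enolase, SSB1 and SSA2 Hsp70 chaperones, and GCN4 a transcription factor that responds to amino acid starvation. ENO2 had means of 1.54 and 1.86 with Nup157, 1.74 and 1.15 with Nup170 in wild type, 1.00 and 1.10 in the sir4∆-labelled library and 1.42 and 1.33 in the yku70∆-labelled library. Its values in the last library did not overlap those in the sir4∆-labelled one. ENO2 is also among the genes named below for a low difference between these libraries, which in part sets this. In all, 518 of 5602 genes with an eligible probe (9.25%) held a member, of which 372 held 1 member and 66 held 3 or more.

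The members kept high ratios in both libraries that the rule did not use. In the sir4∆-labelled library 542 of 785 measured members (69.0%, 65.7% to 72.3%) passed 0.4 in both hybridisations, against 2.9% of all eligible probes. In the yku70∆-labelled library 643 of 787 (81.7%, 78.8% to 84.3%) passed, against 3.55%. The intervals are exact binomial (Clopper-Pearson) at 95% and take probes as independent, which neighbours in a run are not. Both libraries were passed by 518 of 785 (66.0%, background 2.19%), the sir4∆-labelled library alone by 24 (3.06%, background 0.712%), the yku70∆-labelled library alone by 123 (15.7%, background 1.35%) and neither by 120 (15.3%, background 95.7%). Nearly all members lay above 0 in both hybridisations, 769 of 785 in the sir4∆-labelled library (background 33.2%) and 785 of 787 in the yku70∆-labelled library (background 34.2%). The authors' own mark for a bound region was set at 527 of 785 members in the former (67.1%, background 4.58%) and at 608 of 787 in the latter (77.3%, background 5.11%). All of these libraries except Nup157 were precipitated through the same tagged protein, so high values in them repeat that measurement in other strains. Without an untagged strain, the repeats do not tell binding of Nup170p from signal that any anti-Myc precipitation would give.

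Between the unused libraries, the sir4∆-labelled values were lower. The median difference, sir4∆-labelled minus yku70∆-labelled, was -0.13 over the members (quartiles -0.23 and -0.02), with 621 of 785 below 0 (79.1%), against -0.01 and 52.1% over all eligible probes. Over the 4 pairings of single hybridisations the median ran from -0.19 to -0.07, so its sign held in each, and it was -0.059 with normexp background correction. Within a library, the first minus the second hybridisation gave -0.08 in the sir4∆-labelled and 0.04 in the yku70∆-labelled library, so the smallest of the pairings is no larger than the spread between repeats. The normexp value was smaller still, but it is for another set of 2150 probes, and no spread between repeats was computed for it. The sir4∆-labelled value lay below the other in all 4 pairings at 344 of 785 members (43.8%, background 18.2%) and above it in all 4 at 33 (4.20%, background 16.1%). With 1 library in each group, whether this exceeds the spread between cultures was not tested.

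**Figure D3:**
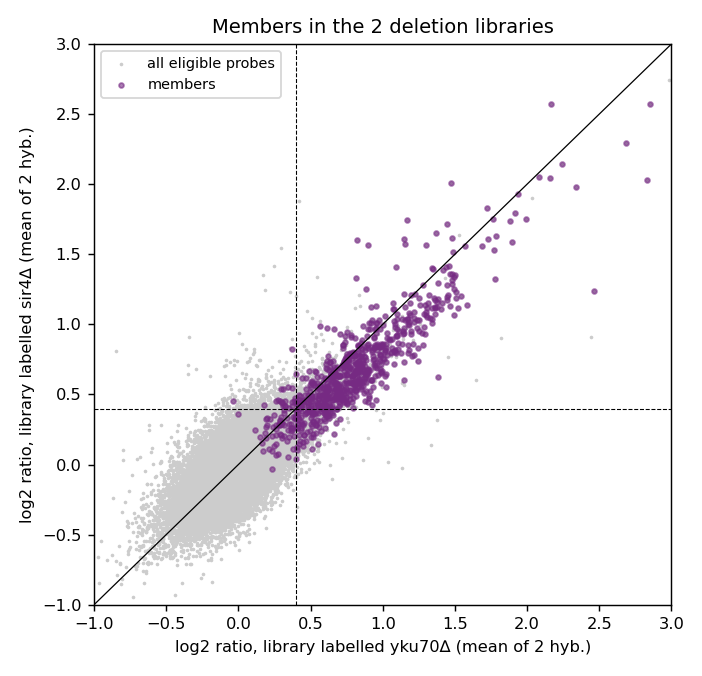
Mean log2 ratio of each probe in the yku70∆-labelled library (horizontal) and the sir4∆-labelled library (vertical), for members (purple) and all eligible probes (grey), with the line of equal values and the threshold of 0.4 (dashed); 5 members lie outside the axes. Most members lie above 0.4 on both axes and below the line of equal values.

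Among genes with at least 3 members, those with the lowest difference included SBP1, RPL2B, FBA1 and ENO2. SBP1, for an RNA-binding protein, stood at -0.68, but its probe at -1168 bp was measured with the yku70∆-labelled library at 3.19 and 1.13 and was not measured with the sir4∆-labelled library, and that probe was near blank in the extract. RPL2B, for a large subunit ribosomal protein, had means of 0.69 and 0.97 in the sir4∆-labelled and 1.26 and 1.01 in the yku70∆-labelled library (difference -0.31). FBA1, for aldolase, had 0.87 and 0.88 against 1.25 and 1.16. These means did not overlap, but its single members did, at 0.66 to 1.04 against 0.99 to 1.34. These genes were named for a low difference, which in part sets such a lack of overlap. At the other end, RPS3, LEU1, YLR154C-G, YRA1 and SSC1 differed by 0.06 to 0.00 in size. The hybridisations overlapped at RPS3, a small subunit ribosomal protein gene, with 0.87 and 1.00 against 1.00 and 0.75.

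The highest genes with at least 3 members in the sir4∆-labelled library were ADH7, YLR154C-G, RPL7A, TDH3 and PDC1, and in the yku70∆-labelled library SBP1 took the place of PDC1. RPL7A stands there through 1 of its 3 members, since its single probes ran from 0.50 to 3.01 in the sir4∆-labelled and from 0.61 to 3.59 in the yku70∆-labelled library. ADH7, for an alcohol dehydrogenase (YCR105W, chromosome 3, 308708 to 309114), had means of 1.59 and 1.71 there and 2.02 and 1.82 in the yku70∆-labelled library. TDH3, for glyceraldehyde-3-phosphate dehydrogenase, had 1.22 and 1.25, and 1.50 and 1.43. YLR154C-G (chromosome 12, 459765 to 460588) is a small ORF that RefSeq places among the repeated ribosomal RNA genes, and its 4 members lay 2112 to 2878 bp from its start. They had means of 2.08 and 2.29 with Nup157, 1.92 and 1.68 with Nup170 in wild type, 1.57 and 1.73 in the sir4∆-labelled library and 1.60 and 1.67 in the yku70∆-labelled library. The lowest were FAS1, RPS0A, NSR1, FAS2 and CRH1 in the sir4∆-labelled library and LEU1, FAS1, RPS26B, FAS2 and CRH1 in the yku70∆-labelled library. FAS1 and FAS2 encode the fatty acid synthase, and their members, with means of 0.26 and 0.42 in the sir4∆-labelled and 0.46 and 0.51 in the yku70∆-labelled library, lay far inside the ORFs, from 3096 and 2838 bp onwards. NSR1 encodes a nucleolar protein and CRH1 a cell wall transglycosylase. A value under 0.1 in an unused library, taken as the mean of its hybridisations, was found at 9 members, among them probes annotated to RPL33A, PGI1, BMH2, RPL27B, GIS3, CSG2, RPS26B and GAT1.

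Ribosomal protein genes of the cytosol made up the largest group among the gene lists, which were chosen with earlier results of these data known. Of 137 measured genes, 103 held a member, with 176 members in all, or 22.3% of the members against 1.52% of all eligible probes. With normexp background correction, which took in 2150 probes, this share was 9.67%. RPL3 led with 5 members, and RPL2B, RPS19B and RPS4A were among those with 4 each. RPS4A had means of 0.38 and 0.87 in the sir4∆-labelled and 0.80 and 0.71 in the yku70∆-labelled library, which overlap. The 176 members had medians of 0.62 in the sir4∆-labelled and 0.77 in the yku70∆-labelled library, and 126 and 159 of them passed 0.4 in both hybridisations, where 69.0% and 81.7% of all members and 2.9% and 3.55% of eligible probes did. Many of these genes exist as near-identical pairs, so a probe may read both copies. The mitochondrial ribosome differed: 1 of 68 genes, RML2, held a member, which lay at -1159 bp in a divergent promoter.

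Glycolysis and ethanol formation had 17 of 21 genes with a member and 54 members, with medians of 0.88 in the sir4∆-labelled and 1.12 in the yku70∆-labelled library. The exceptions were GLK1, HXK1, PDC6 and PYK2, all isozymes of steps that another gene also serves. Members were 30.2% of the eligible probes of this list, against 1.92% of all eligible probes, and 9.25% of all genes held a member. PDC1 had 7 members, CDC19 and PGK1 had 6 each and ADH1 had 4. ADH1 stood at 1.01 and 1.10 in the sir4∆-labelled and 1.34 and 1.34 in the yku70∆-labelled library. Translation factors had 7 of 20 genes with a member (24 members, medians 0.77 and 1.01), with YEF3 at 10, TEF4, for a subunit of elongation factor 1B, at 5, and EFB1 and TEF1 at 2. Members were 20.7% of the eligible probes of the translation factor list. TEF1 and its copy TEF2 both held members and encode the same protein, so their probes may read each other.

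Cell wall proteins and enzymes had 17 of 30 genes with a member (35 members, medians 0.52 and 0.68), among them HPF1, CRH1, SUN4 and GAS1. The sir4∆-labelled and yku70∆-labelled libraries passed 0.4 in both hybridisations at 19 and 30 of these 35, beside the 69.0% and 81.7% of all members and the 2.9% and 3.55% of eligible probes given above. Plasma membrane pumps and hexose transporters had 4 of 11 genes with a member: PMA1, the drug efflux pump gene PDR5 with 5, the amino acid permease gene GAP1 with 1 and PMA2 with 1. None of the 7 hexose transporter genes measured held one. Amino acid synthesis had 10 of 42 genes, led by ASN1, for asparagine synthetase, with 5 members, and ILV5 with 4. Histones had 4 of 11 genes, with 1 member each at HHF2, HHT1, HTA1 and HTA2, and the HHT1 probe was near blank in the extract. Cytosolic chaperones had 4 of 18 genes (SSA2, SSB1, HSC82 and SSA1), ribosome biogenesis 7 of 41, with NSR1 at 3 members, and lipid and sterol synthesis 3 of 17, at FAS1, FAS2 and ERG3. Of 10 inducible genes known from the nuclear periphery, 1 held a member, which is near the 9.25% of all genes. It was GAL2, for the galactose transporter, with 1.08 and 0.60 in the sir4∆-labelled and 0.69 and 1.15 in the yku70∆-labelled library. No nuclear pore gene (of 30) and no silencing factor gene (of 12) held one. The lists together took 359 of 788 members, or 45.6% against 7.82% of eligible probes, and 429 members lay in 340 genes of no list. This contrast is set in part by the choice of lists, which was made with earlier results of these data known.

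**Figure D4:**
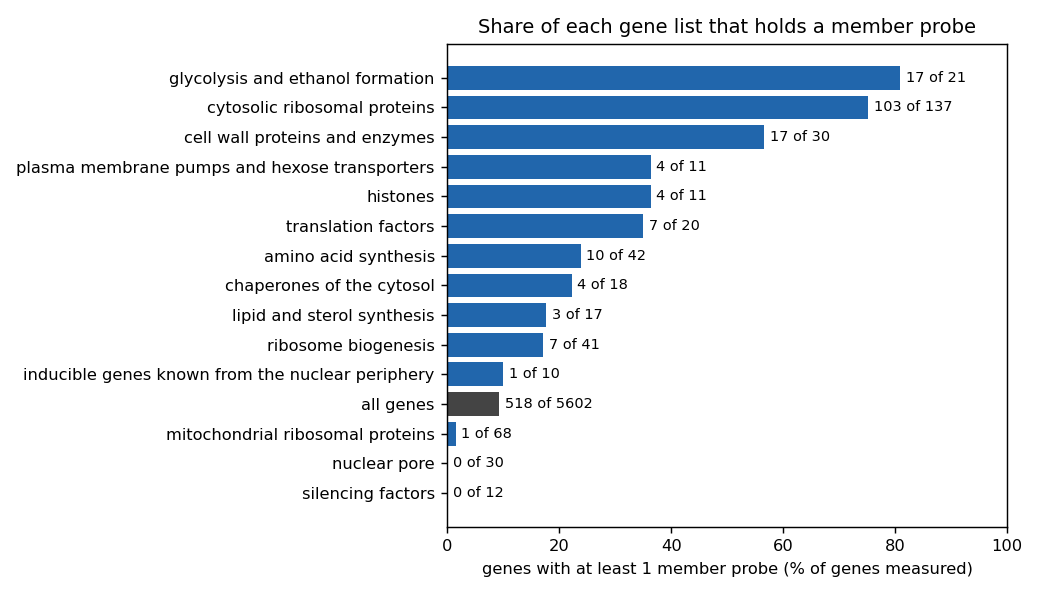
Share of the measured genes of each list that hold at least 1 member probe, in percent, with the numbers of genes beside each bar; the dark bar gives all genes. Glycolysis and cytosolic ribosomal proteins stand at 81.0% and 75.2%, all genes at 9.25%, and mitochondrial ribosomal, nuclear pore and silencing factor genes at or near 0.

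By the annotation types in the files, 474 members (60.2%) lay inside an ORF, 156 (19.8%) in a promoter, 79 (10.03%) in a divergent promoter and 79 (10.03%) downstream of a gene. The shares of all eligible probes were 73.3%, 13.4%, 9.56% and 3.75%, so downstream probes were the type that most often held members (5.14% of them, against 1.58% of probes inside ORFs). Downstream probes were also 16.96% of those that passed with Nup170 but not with Nup157. How the downstream share depends on the processing was not examined. The ORF share depends on the processing: it was 39.3% after removal of an intensity trend and 82.0% with normexp background correction, which lies above the 73.3% of eligible probes, so no direction against the eligible probes is read from it. Members that stood alone were inside an ORF in 49.9% of cases and members in runs of 2 or more in 68.6%. Inside ORFs, 2.28% of probes 500 to 1000 bp from the start were members, against 1.74% in the first 500 bp and 0.69% beyond 2000 bp. Medians in the unused libraries were 0.58 and 0.71 inside ORFs, 0.69 and 0.77 in promoters, 0.57 and 0.72 in divergent promoters and 0.68 and 0.79 downstream, in the order sir4∆-labelled and yku70∆-labelled.

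Many members outside ORFs were annotated to a gene with a tRNA gene next to it on the probe's side. This comparison was chosen after seeing the data. In RefSeq gene order, a tRNA gene, transcribed by RNA polymerase III, lay between the annotated gene and the next protein gene on the probe's side for 118 of 311 members (37.9%), against 1319 of 10954 eligible probes outside ORFs (12.04%). The distance from probe to tRNA gene was not measured, so beside a tRNA gene refers here to gene order only. Some of these probes lay far from their annotated gene, as at MLH2 (-6546 bp) and LEU2 (-7030 bp). For single members the share was 94 of 176 (53.4%), and for members in runs of 2 or more it was 24 of 135 (17.8%). It was 56 of 156 in promoters, 35 of 77 in divergent promoters and 27 of 78 downstream. Inside ORFs, counting tRNA genes on either side, members and eligible probes were at 6.98% and 7.77%. SnoRNA genes neighboured 26 of the 311 (8.36%, against 2.14%). Members beside tRNA genes had medians of 0.64 in the sir4∆-labelled and 0.73 in the yku70∆-labelled library, and 92 and 105 of the 118 passed 0.4 in both hybridisations. All eligible probes beside tRNA genes had medians of 0.10 and 0.07, and 15.2% and 18.4% passed. The highest of them by wild type mean was HMRA1, where the 4 wild type readings were 1.21, 1.51, 1.89 and 1.27, and those in the sir4∆-labelled and yku70∆-labelled library 0.86 and 1.09, and 1.31 and 1.17. In this paragraph and the next, named probes were chosen after their values were seen.

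**Figure D5:**
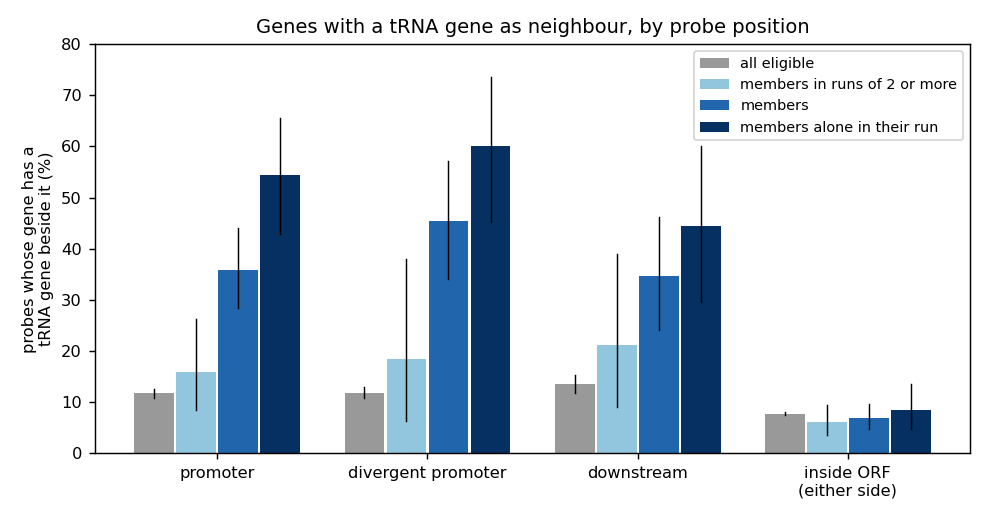
Share of probes, in percent, whose gene has a tRNA gene beside it on the probe's side (for ORF probes, on either side), by annotated position, for all eligible probes, members in runs of 2 or more, all members and members that stand alone; black lines are exact 95% binomial intervals. In the promoter, divergent promoter and downstream groups members that stand alone have the tallest bars, and inside ORFs all bars lie under 10%.

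Of the 5 highest members by wild type mean, those at URA3, RPL7A and PHO90 stood alone, in that no neighbour passed the whole rule. Their nearest probes were not all low. With Nup157 and with Nup170 in wild type these stood at 0.35 and 4.49 at URA3, -0.01 and 0.61 at RPL7A, and 0.85 and 0.50 at PHO90. The highest of all, at -933 bp relative to YLR462W, an uncharacterised subtelomeric ORF (chromosome 12, 1064996 to 1065042), had 3.84 and 4.96 with Nup157, 4.99 and 4.85 with Nup170 in wild type, 3.44 and 4.15 in the sir4∆-labelled and 4.41 and 4.44 in the yku70∆-labelled library. At a member inside URA3 the extract was at blank level in all 4 libraries, so its ratio cannot be read, and the labels give ura3∆0 for all strains. RPL7A (chromosome 7, 366239 to 366298, at -271 bp) had 4.23 and 3.65 with Nup157, 3.67 and 3.30 with Nup170 in wild type, 3.20 and 2.81 in the sir4∆-labelled and 3.81 and 3.37 in the yku70∆-labelled library. The downstream probe of RPS19B was near blank and was not measured in the last 2 libraries. PHO90, for a phosphate transporter (chromosome 10, 62838 to 62896, inside the ORF), had 3.09 and 3.25, 2.90 and 3.05, 2.66 and 2.81, and 2.95 and 3.39 in the same order. All of these except URA3 and RPS19B were high in each of the 8 hybridisations.

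Over 353 single members with an eligible neighbour, the nearest probes lay a median of 271 bp away and had medians of 0.22 with Nup157, 0.23 with Nup170 in wild type, 0.15 in the sir4∆-labelled and 0.20 in the yku70∆-labelled library, against 0.88, 0.73, 0.53 and 0.65 for the members. In the wild type libraries the lower medians of the neighbours were set in part by the rule, since a neighbour that passed it would have joined the run. A neighbour that missed the threshold in a single reading did not join. At some single members, such as those of RPS8A and MRX16, the neighbours were the higher ones with Nup170 in wild type. In the unused libraries the members' medians were also the higher ones. Those libraries were precipitated through the same tagged Nup170 protein, so the rule may in part set this too. At SLX4, for a subunit of a structure-specific endonuclease (chromosome 12, 412713 to 412772), the member had 2.75 and 2.50 with Nup157, 1.79 and 2.11 with Nup170 in wild type, 2.17 and 2.12 in the sir4∆-labelled and 2.02 and 2.46 in the yku70∆-labelled library, while its neighbours were at 0.18 and 0.03 in the last 2. BUD8, for a bud site protein, FAL1, for a nucleolar helicase, and SKG6 also had neighbours between -0.25 and 0.25 in those libraries. With Nup157 the neighbours of BUD8 stood at 0.52. Such neighbours lay closer than the average fragment length of 400 bp. The single members named in this paragraph were chosen after their values were seen, and others with higher wild type means differed. In the sir4∆-labelled and yku70∆-labelled library, neighbours stood at 0.53 and 0.73 at RPL7A and at 0.74 and 0.60 at PHO90. At PAU20 they were low, at -0.17 and 0.03. Probe sequences were not used here, and what sets these single probes apart was not tested.

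Probes that passed with Nup170 alone shared several traits with the members. The 784 eligible probes past 0.4 with Nup170 but not with Nup157 were inside ORFs in 49.4% of cases, belonged to ribosomal protein genes in 17.6% and, outside ORFs, had a tRNA gene beside them in 30.9%, where the members had 60.2%, 22.3% and 37.9%. Those past 0.4 with Nup157 alone numbered 4812, with 81.9%, 1.21% and 8.65%, and the differences between these sets were not tested. Nup170-only probes had medians of 0.46 and 0.53 in the sir4∆-labelled and yku70∆-labelled library, and Nup157-only probes 0.04 and 0.08. The latter low values are set in part by the rule, since these probes had to miss the threshold with Nup170 in wild type.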

How the data were processed

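ChIP-chip was measured in 4 libraries of Saccharomyces cerevisiae, 1 for each group, in 2 hybridisations each. The deposited intensity columns hold foreground and background brightness and the authors' normalised signals in both channels, made with Agilent Feature Extraction per the submitters' processing notes (version not given in the sources used here). Per the file headers, the log2 columns hold the authors' ratio of ChIP over whole cell extract, combined over the hybridisations, and were used as an alternative. The deposited 0 and 1 marks (unit: other) flag excluded spots and the authors' bound regions.

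Ratios were formed from the normalised signals per hybridisation and centred on the nuclear median, and 295 mitochondrial probes of 41775 were left out. Members were then chosen by the rule given above, and library values are means of both hybridisations. Names came from RefSeq (R64), which matched 5639 of 5659 annotated loci. Only its names and gene order were used. Precision is limited by the number of arrays. A probe was near blank when its extract foreground did not exceed the blank spots' mean plus 2.6 SD, as at 16 members and 114 eligible probes. The foreground of members relative to all probes was 0.89 to 1.06 in the extract and 1.47 to 1.73 in the ChIP channel.

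The members and the gene lists were chosen with earlier results of these data known. Named genes are the 20 with most members, those at the 10 longest runs, the 5 highest and 5 lowest in each unused library and in their difference among genes with at least 3 members, up to 4 for each list, the 5 highest members, and the 3 nearest the threshold on each side. Alternatives were thresholds of 0.3 and 0.6, the top 5% of each hybridisation, normexp background correction (limma 3.58.1, offset 50, R 4.3.3), removal of an intensity trend by lowess (statsmodels 0.14.6), a distance of 20 kb from the ends, extract signal above blank, single hybridisations, the authors' combined ratio, 1 probe per run and division by the lower-side SD. Other steps used Python 3.11.15 with pandas 2.3.3 and scipy 1.17.1. The selection code was also run on simulated data with independent noise and planted rises well above the threshold. This checks the code only, not how many members noise in the data could give. No sequences were used here, so the motif searches that were planned were not run. The values of 1 gene that the naming rule takes are not reported here.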

Additional observations from a re-analysis of the deposited data

How the results depend on the processing

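The alternatives named above, and a restriction to members in runs of 2 or more, added after seeing the data like the tRNA share, changed the sign of no median or difference, but with normexp the share of members inside ORFs went from below to above the 73.3% of eligible probes. No paired analysis was possible because each group is 1 library and the results come from no test. In the order number of members, median in the sir4∆-labelled library, median in the yku70∆-labelled library, and the percentage of members past the threshold in each of these, the values were 1208, 0.49, 0.61, 63.9% and 77.0% at a threshold of 0.3, then 367, 0.80, 0.94, 65.7% and 84.7% at 0.6, then 2150, 0.78, 0.81, 65.7% and 74.5% with normexp, and 317, 0.79, 0.93, 86.9% and 95.6% for the top 5% of each hybridisation. For members in runs of 2 or more they were 433 members, a yku70∆-labelled median of 0.83, and 75.6% and 89.4%. That median was 0.71 with an intensity trend removed and 0.69 with 1 probe per run. In SDs of the library, on another scale, the medians were 3.23 and 4.10 and the difference -0.89. The difference in log2 units was -0.059 with normexp, -0.19 with the first hybridisation alone and -0.072 with the second alone. The share inside ORFs was 64.8% at 0.3, 82.0% with normexp, 39.3% with the trend removed, 65.3% for the top 5% and 68.6% in runs. The ribosomal protein share was 18.1% at 0.3, 27.5% at 0.6, 9.67% with normexp and 29.1% in runs. The tRNA share was 30.9% for the top 5% and 17.8% in runs. The causes were not tested. The other 44 values were counted as unmoved, by their spread or, for the number of members, by a limit on its fold change. Within that limit the number still fell from 788 to 595 with the intensity trend removed.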

Other observations

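Within 5 kb of the chromosome ends, which the rule leaves out, 44 of 354 measured probes passed the same values in both wild type libraries. From 5 to 20 kb, 22 of 1421 eligible probes were members. Over all eligible probes, which lie 5 kb or more from the ends, the share of members was 1.92%. Members per chromosome ran from 1.35% of eligible probes on chromosome 14 to 2.92% on chromosome 12, where 108 lay, the 4 beside the ribosomal RNA genes included. Repeat hybridisations could differ widely at a single member: the probe upstream of MUD1, for a protein of the U1 snRNP, had 2.09 and 6.63 in the sir4∆-labelled library, and it was near blank in the extract in all 8 hybridisations. At the member annotated to LEU2, at -7030 bp and thus outside the gene that the labels give as deleted, the values were 1.39 and 1.43 in the sir4∆-labelled and 1.17 and 1.02 in the yku70∆-labelled library.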
